A study of Homo sapiens and Mus musculus with 27 samples.

Results

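The 7 genes described here are those of the myocardin-related transcription factors MRTFA, MRTFB and MYOCD, of the serum response factor SRF, and of the ternary complex factors ELK1, ELK3 and ELK4. They were taken as the rows of the deposited count tables whose gene name equals one of these symbols, with letter case ignored. All 7 were found among 59453 names in each human table and among 55367 names in the mouse table. RNA was sequenced from 27 libraries in 9 groups of 3. Human LM2 breast cancer cells, a lung-tropic derivative of MDA-MB-231, carried overexpressed caMKL1, overexpressed wild-type MKL1 or a control treatment, and the mouse mammary carcinoma line 4T1 was given the same 3 treatments. A further set of LM2 cells was negative for LifeAct, an actin-binding peptide used to label filaments, or expressed it at a low or a high level. MKL1 is an older name of MRTFA. The labels do not spell out the prefix of caMKL1, and they give neither the sequence or species of the constructs nor the promoter that drives them. The labels call the genotype WT in every group apart from caMKL1, where it runs over caMKL1, caMKL2 and caMKL3 in the 3 replicates of each line. The labels do not say whether replicates were separate cultures or cell clones, so p-values measure only the spread between these samples, which may be technical.

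SRF is a MADS-box protein that binds the CArG box, a DNA element found near cytoskeletal and immediate early genes, and it depends on partner proteins for much of its regulation. MRTFA and MRTFB are coactivators held by monomeric actin, and they are freed to enter the nucleus and bind SRF when actin is drawn into filaments. Myocardin, the product of MYOCD, is their relative in cardiac and smooth muscle and is not held by actin in this way. The ternary complex factors are ETS-domain proteins that are phosphorylated by ERK and other MAP kinases, bind SRF at a surface which MRTFs also use, and contact an ETS motif beside the CArG box. ELK3 is known as a repressor as well as an activator.

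In GRCh38, the build of the human counts, MRTFA lies at chr22:40410281-40636719 on the minus strand, MRTFB at chr16:14071319-14266773 on the plus strand and MYOCD at chr17:12665890-12768949 on the plus strand. SRF lies at chr6:43171269-43181506 on the plus strand. ELK1 is at chrX:47635521-47650604 on the minus strand, ELK3 at chr12:96194375-96269824 on the plus strand and ELK4 at chr1:205597556-205632011 on the minus strand. Counts were summed over exons without regard to strand, so reads from overlapping genes cannot be told apart. Exons of other genes cover 5.81% of the exon bases of MRTFA (SGSM3 and RPL4P6), 0.796% of those of MRTFB, 7.93% of those of MYOCD, 4.50% of those of ELK3 and 3.73% of those of ELK4, while the exons of SRF and ELK1 overlap none. In the mouse table (GRCm38) the largest such share was 6.95%, for Elk3 with Cdk17.

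The promoter of SRF is shown because SRF, which no label names as introduced, was higher in all 6 comparisons with a control or negative group, and because the gene is known to be a target of its own product. The 250 bases before its first annotated start, from RefSeq (GRCh38.p14, plus strand, chr6:43171019-43171268), hold 2 CArG boxes, in capitals.
SRF promoter: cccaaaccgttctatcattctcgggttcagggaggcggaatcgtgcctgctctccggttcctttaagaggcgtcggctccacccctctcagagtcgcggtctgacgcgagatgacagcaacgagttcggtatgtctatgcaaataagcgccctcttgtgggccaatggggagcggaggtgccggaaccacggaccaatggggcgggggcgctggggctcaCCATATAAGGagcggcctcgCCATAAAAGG
The first box covers positions -30 to -21 and the second -10 to -1, counted back from the start. CArG boxes, read as CC, then 6 letters of A or T, then GG, were searched on both strands of 13 such human windows. These belong to 6 members, and no window of MRTFA, MRTFB, ELK1, ELK3 or ELK4 held a CArG box. No mouse window was searched, so the mouse genes, Elk1 among them, are not covered. Among 35116 windows of the same length over all genes, 407 (1.16%) held at least 1 CArG box and 11 (0.0313%) held 2 or more. The ETS-type motif CCGGAAGT, also searched on both strands, occurred once among the members' windows, in that of ELK4, and in 1202 of all windows (3.42%). These matches describe the letters of the windows and were not tested for binding.

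Each LM2 library held 22147429 to 32147377 counts, each 4T1 library 21896459 to 29370432, and each library of the LifeAct experiment 15581289 to 23678322. The LifeAct experiment was depleted of ribosomal RNA where the others were selected for polyA. In LM2, replicate 1 of caMKL1 and replicate 1 of MKL1 stood apart from their own groups, with a chi-square per gene of 40.4 and 43.9 against the other caMKL1 replicates, which differed from each other by 2.86, and of 44.5 and 30.9 against the other MKL1 replicates, which differed by 18.3. The share of mitochondrial counts in LM2 was 7.76, 13.4 and 13.6% in caMKL1 replicates 1 to 3, 6.18, 9.87 and 7.11% in MKL1 cells and 7.84, 7.73 and 8.94% in control cells, so that caMKL1 replicates 2 and 3 were the highest. Its part in the caMKL1 values was not tested, and in 4T1 the share was 2.60 to 3.46% over all groups. The markers VIM, KRT8, KRT18, CD44 and AXL were present in both LM2 experiments. CDH1 stayed at or under 0.0776 RPKM in their group means. EPCAM was not absent there, and averaged 14.1 RPKM with caMKL1, 6.41 RPKM with MKL1 and 5.57 RPKM without a construct. Its LifeAct means were 2.37, 2.33 and 2.38 RPKM for negative, low and high cells. ESR1 averaged 0.347 RPKM with caMKL1, against 0.0467 RPKM for LM2 cells of the control treatment. Epcam, Cdh1, Krt8 and Krt18 were all present in 4T1. Epcam averaged 32.7 RPKM with caMKL1, 80.9 with MKL1 and 98.8 RPKM in 4T1 control cells, while Cdh1 was higher with caMKL1. AXL averaged lower with caMKL1 than in control cells, at 30.7 against 136 RPKM in LM2 and 94.9 against 208 RPKM in 4T1. VIM, KRT8 and KRT18 averaged higher with caMKL1 in both lines, and CD44 only in LM2. The summed level of 4 leukocyte markers was at most 0.434 RPKM in any library. The summed level of 4 smooth muscle markers was 93.2 to 93.8 RPKM in 4T1 caMKL1 cells, 34.3 to 35.6 in 4T1 MKL1 cells and 25.8 to 27.8 in 4T1 control cells, with Myocd at 0, and that of 4 endothelial markers was 12.2 to 12.6 in LifeAct negative cells, 4.38 to 4.62 in LifeAct low cells and 1.79 to 1.91 in LifeAct high cells. Smtn made up most of the smooth muscle sum in 4T1, at 67, 34.8 and 26.8 RPKM in caMKL1, MKL1 and control cells. Myh11 averaged 24.6, 0.171 and 0.0317 RPKM in the same order, and Des 1.78, 0.0652 and 0.0615 RPKM. PECAM1 made up most of the endothelial sum, at 12, 3.87 and 0.965 RPKM in LifeAct negative, low and high cells. KDR went the other way, at 0.375, 0.541 and 0.78 RPKM. The part of all these markers in the results below was not tested.

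Per length of counted exons, ELK3 was the most abundant member in the controls. Levels are compared between genes as RPKM, the TMM-scaled CPM (counts per library, scaled to a common depth) divided by the gene length of the table in kilobases. That length covers all counted exons of a gene, 4644 bases for human ELK3 and 12191 for ELK4, and not the transcript expressed. In CPM, ELK3 and ELK4 lay closer in LM2 control cells, at 246 and 214. In LM2 control cells the mean levels ran from ELK3 at 53.1 ± 1.57 RPKM through ELK4 at 17.6 ± 0.646, SRF at 7.45 ± 0.227, ELK1 at 5.24 ± 0.359 and MRTFB at 4.26 ± 0.0555 to MRTFA at 1.41 ± 0.0836 RPKM (SD, n = 3), and no pair of neighbours in that order overlapped. In 4T1 control cells Elk3 led at 40.1 RPKM, followed by Elk4 at 19.5, Srf at 12.5, Mrtfb at 8.71, Mrtfa at 6.10 and Elk1 at 4.99 RPKM, again with no overlap between neighbours. The rank of SRF differed in cells with caMKL1. ELK3 (34.2 ± 2.34 RPKM), SRF (33.5 ± 3.74) and MRTFA (28.5 ± 5.41) overlapped with their neighbours at the top in LM2 caMKL1 cells, and in 4T1 caMKL1 cells Mrtfa (97.2 ± 7.39 RPKM) and Srf (48.2 ± 0.227) stood above Elk3 (22.3 ± 0.0995). In LifeAct negative cells the order was ELK3 at 35.0, SRF at 15.7, ELK4 at 11.3, ELK1 at 9.59, MRTFA at 3.69 and MRTFB at 2.73 RPKM. LifeAct negative cells differ from LM2 control cells in RNA selection as well, and the levels of these groups stand side by side without a test.

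MYOCD was not detectable at this depth. It had 0 counts in all 9 LM2 libraries and in all 9 4T1 libraries, which allows levels of up to 0.0129 and 0.0132 CPM over each experiment, from 3 counts in the summed libraries. In the LifeAct experiment it had 1 count, in high replicate 1. These limits cover counting error only. MYOCD did not pass the filter on low counts in any experiment, which leaves 6 members tested.

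**Figure D1:**
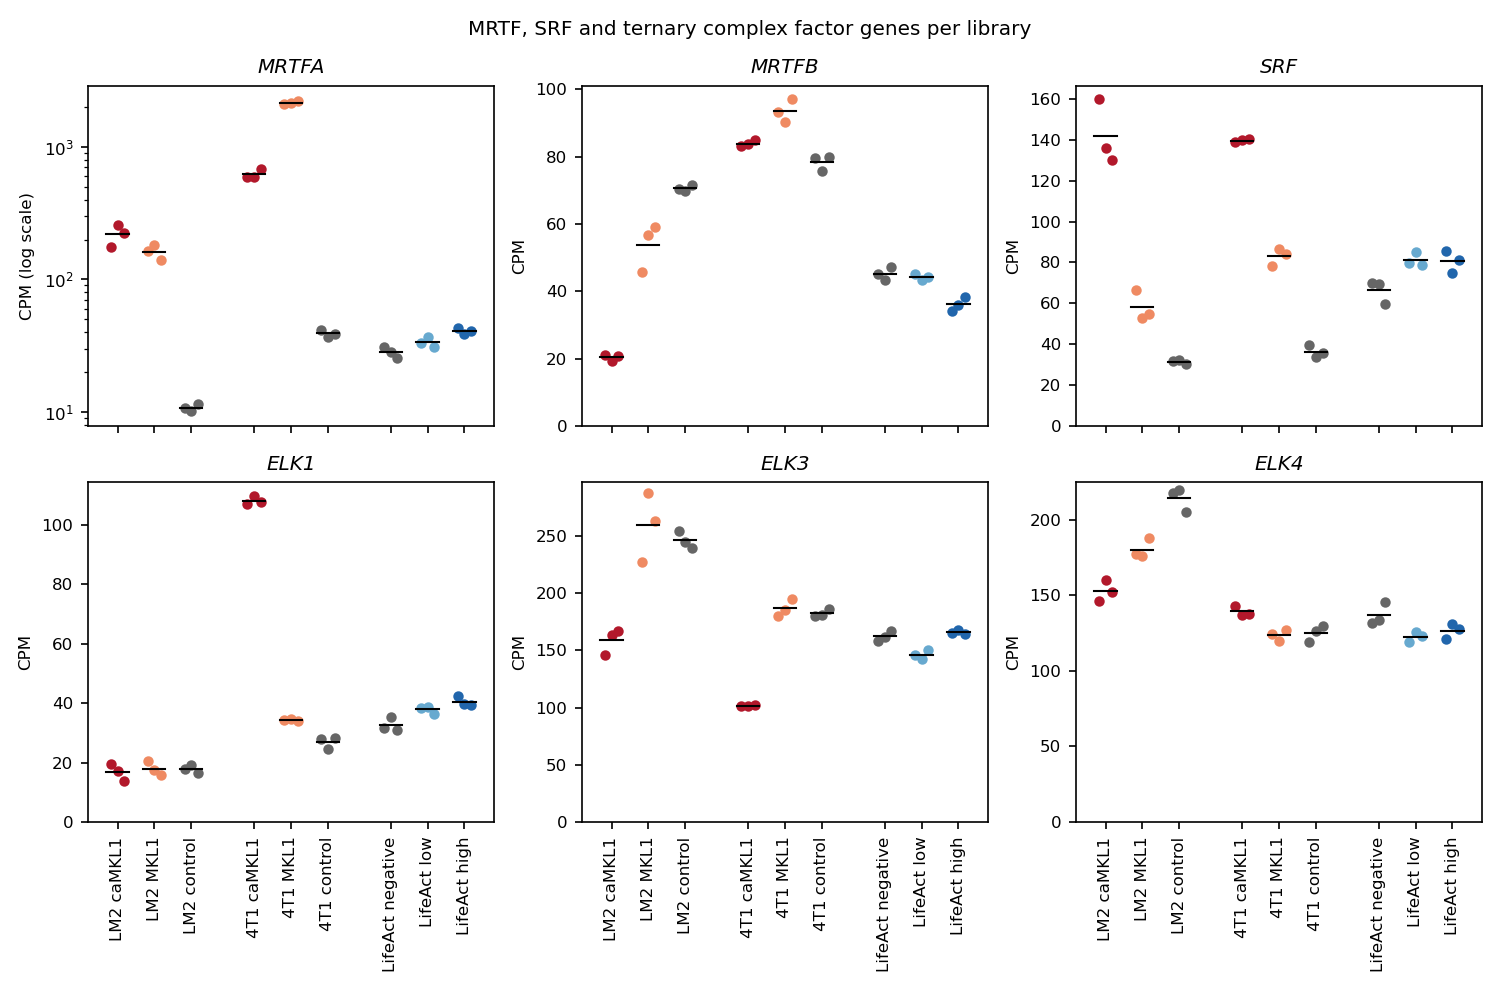
Scaled counts (CPM) of the 6 members tested, per library, in the LM2, 4T1 and LifeAct experiments (mouse genes under their human symbols). Points are libraries, lines are means of 3, and the axis of MRTFA is logarithmic while the others start at 0; SRF lies above control in every MKL1 and caMKL1 library of both lines, and ELK1 stands apart in 4T1 caMKL1 at 107 to 109.5 CPM.

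MRTFA counts were raised in every group that carried an MKL1 construct. In LM2, MRTFA had 175, 257 and 223 CPM in caMKL1 cells, 164, 181 and 140.2 CPM in MKL1 cells and 10.6, 10.3 and 11.5 CPM in control cells. Both construct groups lay far above the controls and overlapped with each other. The log2 ratio to control was 4.34 ± 0.149 (SE) with caMKL1 (adjusted p = 9.8e-13) and 3.90 ± 0.147 with MKL1 (adjusted p = 2.5e-10), by edgeR's quasi-likelihood F test with Benjamini-Hochberg adjustment over all genes, as for every adjusted p here. MRTFA was 1.35-fold higher in caMKL1 than in MKL1 cells (adjusted p = 0.00695), a call that was lost without caMKL1 replicate 2 (adjusted p = 0.0566) and with library totals as scaling (log2 ratio 0.09, adjusted p = 0.451).

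In 4T1 the order of the constructs was the other way round. Mrtfa had 596, 597 and 679 CPM in caMKL1 cells, 2087, 2147 and 2199 CPM in MKL1 cells and 41.6, 37.0 and 39.0 CPM in control cells, with no overlap between any groups. Mrtfa was 3.44-fold lower in caMKL1 than in MKL1 cells (log2 ratio -1.78 ± 0.0401, adjusted p = 2.0e-21). Its log2 ratio to control was 4.00 ± 0.0486 with caMKL1 (adjusted p = 6.8e-27) and 5.78 ± 0.0507 with MKL1 (adjusted p = 5.7e-29). Reads of the introduced and of the cell's own gene cannot be told apart in these counts, and a construct that differs from the annotated gene in sequence or length may be counted in part.

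LifeAct cells carried no MKL1 construct by their labels, and MRTFA was higher there too, by less. It had 31.1, 28.2 and 25.7 CPM in negative cells, 33.1, 37.0 and 30.7 CPM in low cells and 43.4, 38.5 and 40.8 CPM in high cells. The high cells lay above all others, while low and negative cells overlapped. MRTFA was 1.45-fold higher in high than in negative cells (log2 ratio 0.53 ± 0.0767, adjusted p = 5.0e-07) and 1.23-fold higher in high than in low cells (adjusted p = 0.00148). The ratio of low to negative cells was 1.18-fold (adjusted p = 0.0114), a call that was lost without low replicate 2 (adjusted p = 0.102) or without negative replicate 3 (adjusted p = 0.0665).

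MRTFB, the paralog of MRTFA, was lower in LM2 caMKL1 than in LM2 control cells and not lower in 4T1 caMKL1 than in 4T1 control cells under the scaling used here. In LM2 it had 21.0, 19.3 and 20.9 CPM in caMKL1 cells, 45.6, 56.6 and 59.1 CPM in MKL1 cells and 70.3, 69.8 and 71.6 CPM in control cells. The 3 groups did not overlap, and the caMKL1 cells were the lowest. MRTFB was 3.46-fold lower in caMKL1 than in control cells (log2 ratio -1.79 ± 0.107, adjusted p = 6.0e-10) and 2.63-fold lower than in MKL1 cells (adjusted p = 1.2e-08). The ratio of MKL1 to control cells was smaller (log2 ratio -0.39 ± 0.102, adjusted p = 0.0197), and that call was lost when any 1 control library was left out (adjusted p = 0.0702 to 0.0849).

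In 4T1, Mrtfb had 83.1, 83.7 and 84.8 CPM in caMKL1 cells, 93.2, 90.1 and 97.0 CPM in MKL1 cells and 79.6, 75.6 and 79.8 CPM in control cells. The MKL1 cells were the highest and did not overlap with the others. Mrtfb was 1.19-fold higher in MKL1 than in control cells (adjusted p = 1.1e-05). Its ratio of caMKL1 to control was 1.07-fold (adjusted p = 0.025), a direction that turned with library totals as scaling (log2 ratio -0.08, adjusted p = 0.0514), while the call was lost without caMKL1 replicate 3 (adjusted p = 0.0585), without control replicate 2 (adjusted p = 0.142) and without the filter on low counts (adjusted p = 0.22). In the LifeAct series MRTFB had 45.0, 43.3 and 47.3 CPM in negative cells, 45.2, 43.4 and 44.2 CPM in low cells and 34.1, 36.0 and 38.2 CPM in high cells. The high cells lay below all others, with 1.26-fold less MRTFB than negative cells (log2 ratio -0.33 ± 0.0622, adjusted p = 3.3e-05) and 1.23-fold less than low cells (adjusted p = 1.8e-04).

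The share of MRTFA in the summed MRTF transcripts summarises these levels. Per length, MRTFA made up 95.7 ± 0.957% of the RPKM of MRTFA, MRTFB and MYOCD in LM2 caMKL1 cells, 86.6 ± 2.56% in MKL1 cells and 24.8 ± 0.858% in control cells (SD, n = 3). In 4T1 the share was 91.2 ± 0.508% in caMKL1 cells, 97.0 ± 0.0955% in MKL1 cells and 41.2 ± 0.900% in control cells. In LifeAct cells it was 57.5 ± 3.03% in negative, 62.1 ± 2.49% in low and 71.0 ± 2.02% in high cells. By RPKM, MRTFB was thus the larger part in both control groups, and MRTFA in every other group. Counts not divided by length gave MRTFA lower shares, 13.3% in LM2 control and 38.5% in LifeAct negative cells, because the counted exons of human MRTFB are longer. On that scale MRTFB was the larger part in LifeAct negative (61.5%) and LifeAct low cells (56.9%) as well.

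**Figure D2:**
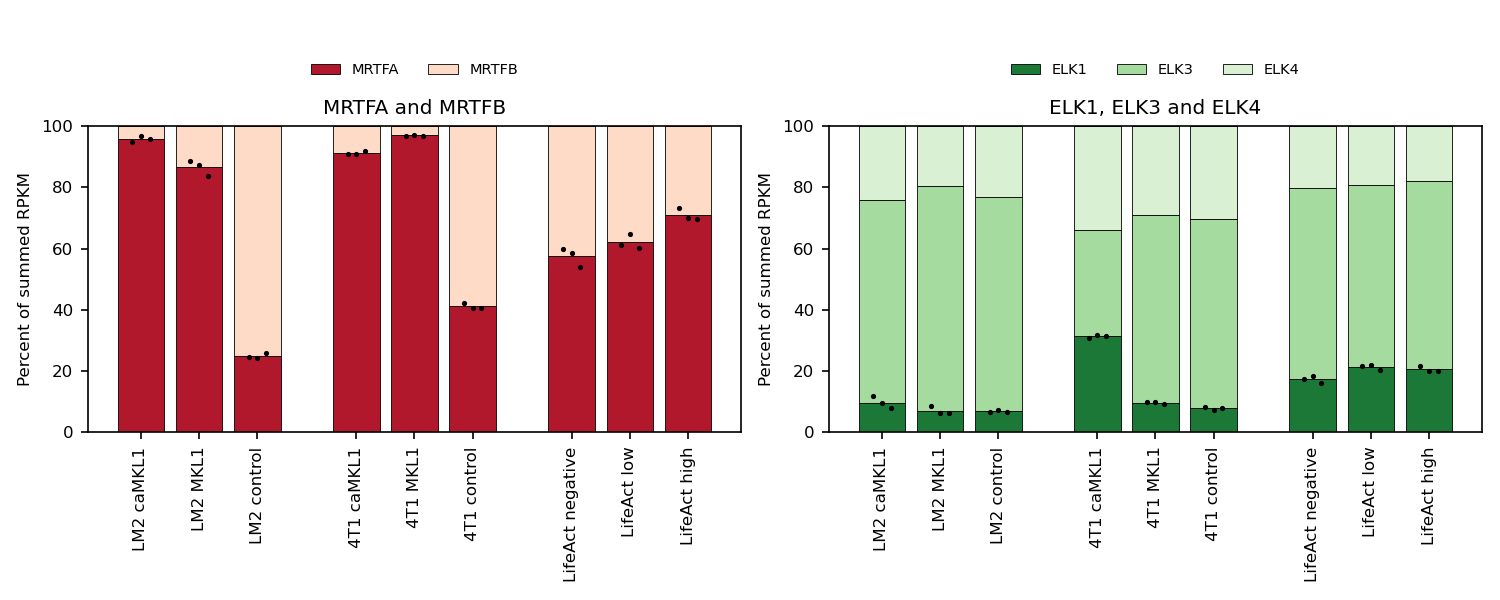
Share of each gene in the summed RPKM of MRTFA and MRTFB (left) and of ELK1, ELK3 and ELK4 (right), as percent, for the 9 groups; bars are means of 3 libraries and points show the libraries for MRTFA and ELK1. MRTFA holds at least 86.6% in all 4 construct groups, against 24.8% in LM2 control and 41.2% in 4T1 control, and ELK1 holds 31.3% in 4T1 caMKL1, above every other group.

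SRF was higher with both constructs in both lines and higher in LifeAct low and high cells. In LM2 it had 159.9, 136 and 129.9 CPM in caMKL1 cells, 66.5, 52.8 and 54.9 CPM in MKL1 cells and 31.7, 32.4 and 30.5 CPM in control cells. The 3 groups formed 3 steps with no overlap. SRF was 4.50-fold higher in caMKL1 than in control cells (log2 ratio 2.17 ± 0.111, adjusted p = 8.7e-11), 1.84-fold higher in MKL1 than in control cells (log2 ratio 0.88 ± 0.108, adjusted p = 5.5e-05) and 2.44-fold higher in caMKL1 than in MKL1 cells (adjusted p = 3.4e-08). Without replicate 1 of both constructs, the ones that stood apart, the log2 ratios to control were 2.08 with caMKL1 (adjusted p = 2.2e-15) and 0.77 with MKL1 (adjusted p = 2.9e-07).

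In 4T1, Srf had 139, 139.7 and 140.2 CPM in caMKL1 cells, 78.4, 86.5 and 84.3 CPM in MKL1 cells and 39.6, 33.7 and 35.6 CPM in control cells. The same 3 steps were seen, although Mrtfa counts were lower in caMKL1 than in MKL1 cells. Srf was 3.85-fold higher in caMKL1 than in control cells (log2 ratio 1.95 ± 0.0483, adjusted p = 7.5e-21), 2.29-fold higher in MKL1 than in control cells (log2 ratio 1.20 ± 0.0501, adjusted p = 2.7e-15) and 1.68-fold higher in caMKL1 than in MKL1 cells (adjusted p = 3.7e-13). In the LifeAct series SRF had 69.9, 69.3 and 59.8 CPM in negative cells, 79.9, 85.1 and 78.6 CPM in low cells and 85.8, 74.9 and 81.3 CPM in high cells. Low and high cells both lay above negative cells and overlapped with each other. The ratio to negative cells was 1.22-fold in low cells (log2 ratio 0.29 ± 0.0599, adjusted p = 1.8e-04) and 1.22-fold in high cells (log2 ratio 0.29 ± 0.0601, adjusted p = 1.2e-04), and high and low cells differed by less than the test could tell (log2 ratio -0.0045 ± 0.0583, adjusted p = 0.955).

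The genes whose log2 ratios lay nearest to those of SRF over the 6 comparisons with a control or negative group were the actin crosslinker FLNA, the tropomyosin gene TPM4 and the keratin gene KRT8, at root mean square differences of 0.151, 0.177 and 0.228 on the log2 scale among 10258 genes compared. The 2 comparisons of an experiment share their control samples, so the 6 ratios are not independent. FLNA had log2 ratios to control of 2.47 with caMKL1 and 0.96 with MKL1 in LM2, and of 2.02 and 1.05 in 4T1. For MRTFB the nearest genes were CREB3L2, BRD3 and KBTBD7, at 0.129, 0.158 and 0.166. CREB3L2, which encodes a membrane-bound transcription factor, had log2 ratios to control of -1.77 with caMKL1 in LM2 and 0.22 with caMKL1 in 4T1.

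**Figure D3:**
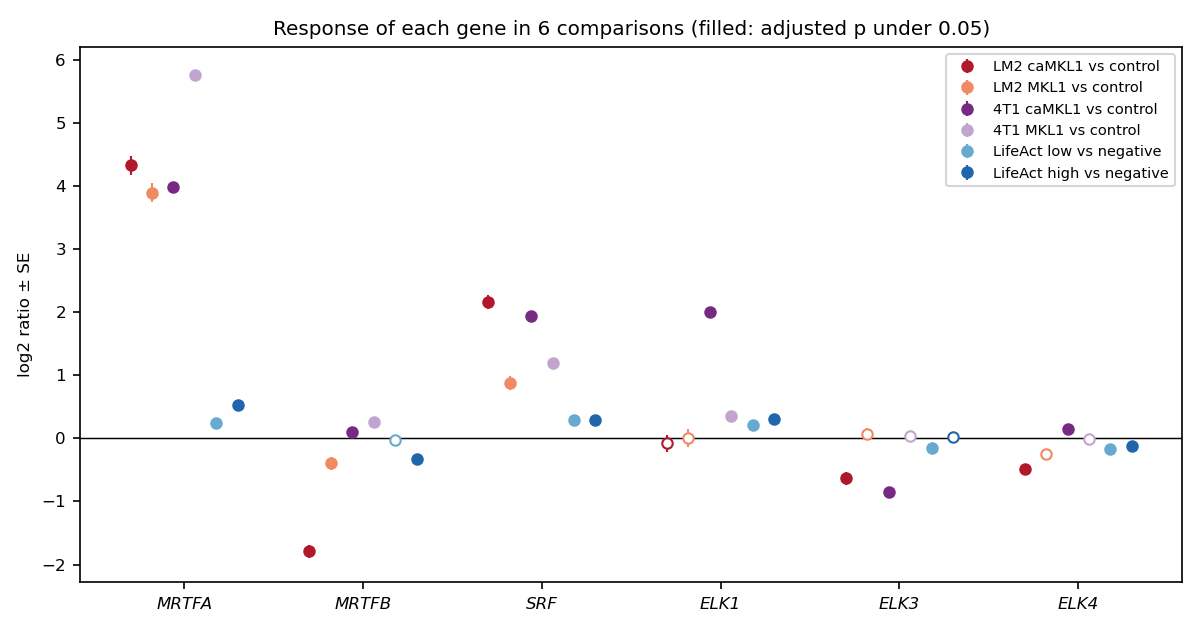
Log2 ratio of each tested member (y axis, error bars are SE) in the 6 comparisons with a control or negative group; filled points passed an adjusted p of 0.05 and open points did not. SRF lies above 0 in all 6, MRTFB is lowest in LM2 caMKL1 at -1.79, and ELK1 at 2.01 in 4T1 caMKL1 stands apart from its other values.

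Among the ternary complex factors, ELK1 had the widest gap between the lines with caMKL1. In 4T1, Elk1 had 107, 109.5 and 107 CPM in caMKL1 cells, 34.2, 34.8 and 33.9 CPM in MKL1 cells and 27.8, 24.6 and 28.2 CPM in control cells. The caMKL1 cells lay far above the rest, and MKL1 cells also lay above control cells. Elk1 was 4.03-fold higher in caMKL1 than in control cells (log2 ratio 2.01 ± 0.0474, adjusted p = 2.7e-21), 1.28-fold higher in MKL1 than in control cells (log2 ratio 0.36 ± 0.0530, adjusted p = 8.7e-06) and 3.15-fold higher in caMKL1 than in MKL1 cells (adjusted p = 1.8e-19).

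In LM2, ELK1 had 19.5, 17.3 and 13.7 CPM in caMKL1 cells, 20.4, 17.5 and 15.9 CPM in MKL1 cells and 17.7, 19.1 and 16.6 CPM in control cells. These groups overlapped. The log2 ratio to control was -0.08 ± 0.141 with caMKL1 (adjusted p = 0.638) and 0.01 ± 0.140 with MKL1 (adjusted p = 0.973), and only with library totals as scaling did the first pass (log2 ratio -0.48, adjusted p = 0.0169). Across LifeAct levels, ELK1 had 31.8, 35.2 and 30.8 CPM in negative cells, 38.5, 38.7 and 36.4 CPM in low cells and 42.3, 39.7 and 39.2 CPM in high cells. Low and high cells lay above negative cells, by 1.16-fold (adjusted p = 0.00782) and 1.24-fold (adjusted p = 1.2e-04), and the ratio of high to low cells was 1.07-fold (adjusted p = 0.207).

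ELK3 fell with caMKL1 in both lines. In LM2 it had 146, 163 and 167 CPM in caMKL1 cells, 227, 288 and 263 CPM in MKL1 cells and 254, 245 and 239.8 CPM in control cells. The caMKL1 cells lay below all others, while MKL1 and control cells overlapped. ELK3 was 1.55-fold lower in caMKL1 than in control cells (log2 ratio -0.63 ± 0.0981, adjusted p = 3.3e-05), and the log2 ratio of MKL1 to control cells was 0.07 ± 0.0974 (adjusted p = 0.671).

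In 4T1, Elk3 had 102, 101 and 102 CPM in caMKL1 cells, 180.5, 186 and 195 CPM in MKL1 cells and 179.8, 181 and 186 CPM in control cells. The pattern of groups was that of LM2. Elk3 was 1.80-fold lower in caMKL1 than in control cells (log2 ratio -0.84 ± 0.0338, adjusted p = 1.0e-16) and 1.84-fold lower than in MKL1 cells (adjusted p = 7.6e-17), with a log2 ratio of MKL1 to control of 0.03 ± 0.0325 (adjusted p = 0.456). Across LifeAct levels, ELK3 had 158, 162 and 167 CPM in negative cells, 146, 142 and 150.3 CPM in low cells and 165, 168 and 165 CPM in high cells. Low cells were the lowest, at 1.11-fold below negative cells (adjusted p = 0.00359), and high cells overlapped with negative cells (log2 ratio 0.03 ± 0.0416, adjusted p = 0.509).

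ELK4 differed by less than 1.5-fold in all 9 comparisons. In LM2 it had 146, 159.9 and 152 CPM in caMKL1 cells, 177, 176 and 188 CPM in MKL1 cells and 218, 220.0 and 205 CPM in control cells. The 3 groups did not overlap, and ELK4 was 1.40-fold lower in caMKL1 than in control cells (log2 ratio -0.49 ± 0.0820, adjusted p = 7.4e-05). The log2 ratio of MKL1 to control was -0.25 ± 0.0817 (adjusted p = 0.0604), and it passed without replicate 1 of both constructs (-0.23, adjusted p = 0.0236). It also passed with the DESeq2 Wald test (adjusted p = 0.0455), with limma voom (adjusted p = 0.0491), with library totals as scaling (adjusted p = 0.0208) and without caMKL1 replicate 1 (adjusted p = 0.0456). ELK4 was 1.18-fold lower in caMKL1 than in MKL1 cells (adjusted p = 0.0175), a call lost without caMKL1 replicate 1 (adjusted p = 0.0508) or replicate 3 (adjusted p = 0.0576).

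In 4T1, Elk4 had 143, 137 and 138 CPM in caMKL1 cells, 125, 119.7 and 127 CPM in MKL1 cells and 119, 126 and 129.8 CPM in control cells. It was 1.11-fold higher in caMKL1 than in control cells (adjusted p = 6.1e-04), and library totals as scaling turned that direction (log2 ratio -0.03, adjusted p = 0.517). Across LifeAct levels, ELK4 had 132, 134 and 146 CPM in negative cells, 119, 126 and 123 CPM in low cells and 121, 131 and 128 CPM in high cells. Low cells were 1.12-fold below negative cells (adjusted p = 0.0052). High cells were 1.08-fold below negative cells (adjusted p = 0.0286). That call was lost without high replicate 1 (adjusted p = 0.13), high replicate 3 (adjusted p = 0.0557) or negative replicate 3 (adjusted p = 0.156). It was also lost with DESeq2 (adjusted p = 0.0654), without the filter on low counts (adjusted p = 0.0621) and in a fit of only the 2 groups compared (adjusted p = 0.054).

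The 3 factors together were lower in LM2 caMKL1 cells, at a summed 51.7 ± 2.15 RPKM, against 75.9 ± 6.14 RPKM in MKL1 cells and 75.9 ± 2.27 RPKM in control cells. In 4T1 the sums lay close to each other, at 64.2 ± 0.385 RPKM in caMKL1, 66.8 ± 1.90 in MKL1 and 64.6 ± 1.66 in control cells, while the make-up differed. ELK3 held 34.8 ± 0.268% of the sum in 4T1 caMKL1 cells, 61.5 ± 0.806% in MKL1 cells and 62.1 ± 0.421% in control cells, and ELK1 held 31.3 ± 0.505% in caMKL1 cells, 9.55 ± 0.369% in MKL1 cells and 7.73 ± 0.523% in control cells. In LM2, ELK3 held 66.1 ± 2.25% in caMKL1, 73.4 ± 2.80% in MKL1 and 69.9 ± 0.759% in control cells. Counts not divided by length gave another order in 4T1 caMKL1 cells, with ELK4 at 39.9%, ELK1 at 30.9% and ELK3 at 29.1%. On that scale ELK3 held 54.6% in 4T1 control and 51.5% in LM2 control cells.

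The number of members past the threshold is given beside the share of all tested genes that passed. With caMKL1 in LM2, 5 of 6 tested members differed from control, where 64.9% of all tested genes did, and with MKL1 2 of 6 were higher, as were 7.25% of all genes, and 1 of 6 was lower, as were 4.74% of all genes. With caMKL1 in 4T1 it was 6 of 6 (72.0% of all genes), and with MKL1 it was 4 of 6 (34.3%). Between the constructs, 5 of 6 differed in LM2 (64.5%) and 6 of 6 in 4T1 (66.6%). In the LifeAct series 5 of 6 differed in low against negative cells (49.6%), 5 of 6 in high against negative cells (71.1%) and 3 of 6 in high against low cells (50.3%). Without replicate 1 of both LM2 constructs, 5 of 6 members still differed between caMKL1 and control cells, with log2 ratios of 4.48 for MRTFA, -1.81 for MRTFB, 2.08 for SRF, -0.57 for ELK3 and -0.45 for ELK4. Between MKL1 and control cells 4 of 6 then differed, with 3.89 for MRTFA, -0.29 for MRTFB, 0.77 for SRF and -0.23 for ELK4. Calls over all genes also rose in that refit, from 12271 to 13056 for caMKL1 against control and from 2265 to 2870 for MKL1 against control. MRTFA is counted in each of the numbers of members and is the introduced gene in the construct comparisons.

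The responses of the lines were compared in a fit over 18 libraries, with the difference between 4T1 and LM2 in the log2 ratio to control as the tested value. The caMKL1 response differed for 6 of 6 members, where 60.3% of 13113 tested symbols differed. That number includes MRTFA, the introduced gene. ELK1 had a difference of 1.96 ± 0.139 (adjusted p = 6.8e-11) and MRTFB one of 1.76 ± 0.114 (adjusted p = 1.7e-11), and ELK4 one of 0.52 ± 0.0858 (adjusted p = 2.1e-05), all toward higher values in 4T1. MRTFA (-0.47 ± 0.165, adjusted p = 0.0176), SRF (-0.35 ± 0.116, adjusted p = 0.0118) and ELK3 (-0.34 ± 0.110, adjusted p = 0.0111) had smaller differences toward lower values in 4T1, and those 3 were lost with library totals as scaling, where ELK3 turned in sign (0.01, adjusted p = 0.973).

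The MKL1 response differed for 2 of 6 members, where 19.9% of all tested symbols differed. These were MRTFA (1.85 ± 0.167, adjusted p = 1.3e-07) and MRTFB (0.62 ± 0.110, adjusted p = 4.3e-04). MRTFA is the introduced gene here too, which leaves MRTFB as the only other member that differed. The differences of SRF (0.29 ± 0.117, adjusted p = 0.0856), ELK1 (0.32 ± 0.138, adjusted p = 0.109) and ELK4 (0.21 ± 0.0857, adjusted p = 0.0893) did not pass, and passed without replicate 1 of both LM2 constructs, at 0.39, 0.42 and 0.18 (adjusted p = 9.8e-04, 0.00561 and 0.0444). That of ELK3 was -0.06 ± 0.110 (adjusted p = 0.763).

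**Figure D4:**
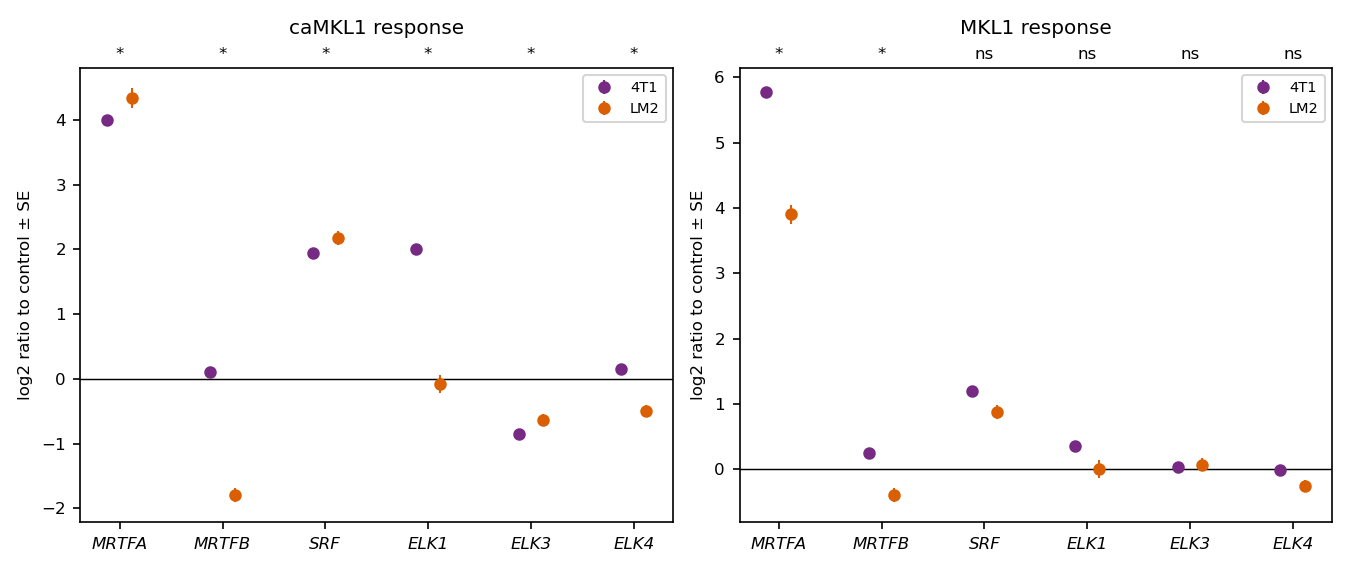
Log2 ratio to control of the 6 tested members in 4T1 and LM2 cells for caMKL1 (left) and MKL1 (right), with SE as bars; an asterisk above a gene marks an adjusted p under 0.05 for the difference between the lines and ns marks the others. With caMKL1 the widest gaps are those of ELK1 and MRTFB, at 1.96 and 1.76, and with MKL1 only MRTFA and MRTFB carry an asterisk.

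Genes around the members were described from 6 lists, by counts and by the median log2 ratio, beside which the medians over all genes lay between -0.05 and 0.01. The counts are to be read against the share of all genes past the threshold, 64.9% with caMKL1 and 7.25% higher plus 4.74% lower with MKL1 in LM2, 72.0% with caMKL1 and 34.3% with MKL1 in 4T1, and 49.6% in LifeAct low and 71.1% in LifeAct high cells. Of 34 tested MRTF-SRF target genes, 31 rose and 3 fell with caMKL1 in LM2 (median log2 ratio 2.41), and 32 rose and 1 fell in 4T1 (2.00). With MKL1, 29 rose and 1 fell in LM2 (median 0.93) and 32 rose and 0 fell in 4T1 (0.91). In the LifeAct series 17 of 32 rose and 8 fell in low against negative cells (0.15), and 20 rose and 5 fell in high against negative cells (0.38).

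ACTB, the cytoplasmic beta-actin gene, had log2 ratios to control of 3.27 ± 0.159 with caMKL1 and 1.46 ± 0.149 with MKL1 in LM2, and of 0.56 ± 0.0371 in LifeAct high cells (adjusted p = 5.0e-11, 7.9e-06 and 7.1e-14). VCL, the focal adhesion protein vinculin, rose with caMKL1 in LM2 by 2.54 ± 0.093 (adjusted p = 2.0e-12), and its ratio of LifeAct high to negative cells was 0.07 ± 0.0361 (adjusted p = 0.108). ACTA2, smooth muscle actin, averaged 2120 CPM in LM2 caMKL1 cells and 0.681 CPM in control cells, while in LifeAct cells its log2 ratio of high to negative was 0.10 ± 0.225 (adjusted p = 0.702). ACTB and ACTA2 share near-identical stretches with other actin genes and pseudogenes, so their counts are uncertain.

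The list of immediate early genes, which ternary complex factors are known to serve, had both risen and fallen members in all 6 comparisons. With caMKL1, 16 of 20 rose and 2 fell in LM2 (median 2.27), and 11 rose and 7 fell in 4T1 (0.29). With MKL1, 11 rose and 1 fell in LM2 (0.61), and 9 rose and 1 fell in 4T1 (0.19). In the LifeAct series 7 rose and 9 fell in low against negative cells (-0.12), and 14 rose and 4 fell in high against negative cells (0.75).

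EGR1, a zinc-finger factor whose promoter is known for its SRF sites, had a log2 ratio to control of 3.48 ± 0.175 with caMKL1 in LM2 (adjusted p = 7.1e-11), while Egr1 in 4T1 had one of -3.70 ± 0.104 (adjusted p = 8.2e-20). EGR1 was also higher in LifeAct high than in negative cells (1.40 ± 0.0453, adjusted p = 4.9e-21). FOS, an AP-1 subunit, averaged 91.9 CPM in LM2 caMKL1 cells and 1.53 CPM in control cells (log2 ratio 5.90 ± 0.140, adjusted p = 5.4e-14), and fell by 1.15 ± 0.056 on the log2 scale in LifeAct high against negative cells (adjusted p = 6.2e-17).

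Upstream of the MRTFs, regulators moved in both directions. Of 35 tested in LM2, 14 rose and 16 fell with caMKL1 (median -0.15) and 7 rose and 3 fell with MKL1 (0.03). Of 34 in 4T1, 19 rose and 13 fell with caMKL1 (0.16) and 12 rose and 11 fell with MKL1 (0.02). In LifeAct cells 16 of 36 rose and 10 fell in low (0.03), and 19 rose and 13 fell in high cells (0.13). With library totals as scaling, 9 rose and 21 fell with caMKL1 in LM2, and the balance turned with caMKL1 in 4T1 (16 rose and 17 fell, median -0.02) and with MKL1 in 4T1 (9 rose and 15 fell, median -0.05), as did the median with MKL1 in LM2 (-0.05). MICAL2, an enzyme that oxidises nuclear actin, had log2 ratios to control of -0.67 ± 0.0919 with caMKL1 in LM2 (adjusted p = 9.5e-06), and Mical2 had one of 1.17 ± 0.0384 in 4T1 (adjusted p = 2.0e-18). SCAI, a known inhibitor of MRTFA, had -1.49 ± 0.146 with caMKL1 in LM2 (adjusted p = 2.2e-07), and Scai had -0.30 ± 0.068 in 4T1 (adjusted p = 4.1e-04).

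On the kinase side, 7 of 29 ERK-TCF pathway genes rose and 14 fell with caMKL1 in LM2 (median -0.31), and 9 rose and 14 fell in 4T1 (-0.09). The shares past the threshold, 72.4% in LM2 and 79.3% in 4T1, were near those of all genes, as was the 13.8% with MKL1 in LM2. With MKL1, 1 rose and 3 fell in LM2 (-0.04), and 8 rose and 5 fell in 4T1 (-0.01). In LifeAct cells 8 rose and 11 fell in low (-0.04), and 10 rose and 14 fell in high cells (-0.09). With library totals as scaling, 5 rose and 21 fell with caMKL1 in LM2, 6 rose and 20 fell in 4T1, and the counts turned to 5 risen and 10 fallen with MKL1 in 4T1. DUSP6, the phosphatase that acts on ERK, fell by 1.90 ± 0.0419 on the log2 scale in LifeAct high against negative cells (adjusted p = 6.4e-25), and Dusp6 fell by 2.21 ± 0.0487 with caMKL1 in 4T1 (adjusted p = 7.0e-22). DUSP6 in LM2 had a ratio of -0.23 ± 0.185 with caMKL1 (adjusted p = 0.284).

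Of the MADS-box relatives and SRF partners, 11 of 15 rose and 2 fell with caMKL1 in LM2 (median 0.74), and 11 of 16 rose and 4 fell in 4T1 (0.45). With MKL1, 1 of 15 rose and 0 fell in LM2 (-0.03), and 9 of 16 rose and 2 fell in 4T1 (0.14). In LifeAct cells 5 of 15 rose and 6 fell in low (-0.04), and 5 rose and 6 fell in high cells (-0.14). With library totals as scaling, 8 rose and 3 fell with caMKL1 in LM2, and 1 rose and 2 fell with MKL1. CSRP1, a LIM protein known to bridge SRF and GATA factors, had log2 ratios of 4.08 ± 0.126 in LM2 (adjusted p = 3.7e-13), and Csrp1 had 4.43 ± 0.0322 in 4T1 (adjusted p = 4.8e-31), both with caMKL1. Both values lie far above the medians of the list, and CSRP1 does not stand for it.

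Of the other ETS factors, 9 of 17 rose and 3 fell with caMKL1 in LM2 (median 0.48), and 4 of 13 rose and 8 fell in 4T1 (-0.27). With MKL1, 2 of 17 rose and 0 fell in LM2 (-0.03), and 3 of 13 rose and 3 fell in 4T1 (-0.02). In LifeAct cells 7 of 18 rose and 5 fell in low (0.05), and 10 rose and 6 fell in high cells (0.23). With library totals as scaling, 5 rose and 5 fell with caMKL1 in LM2, 2 rose and 9 fell in 4T1, and 1 rose and 5 fell with MKL1 in 4T1. ETV5, a PEA3-family factor, had 1.23 ± 0.0841 with caMKL1 in LM2 (adjusted p = 3.0e-09), and Etv5 had -1.95 ± 0.0566 in 4T1 (adjusted p = 1.6e-19). ETS1 was 1.29 ± 0.0382 higher on the log2 scale in LifeAct high than in negative cells (adjusted p = 6.0e-22).

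**Figure D5:**
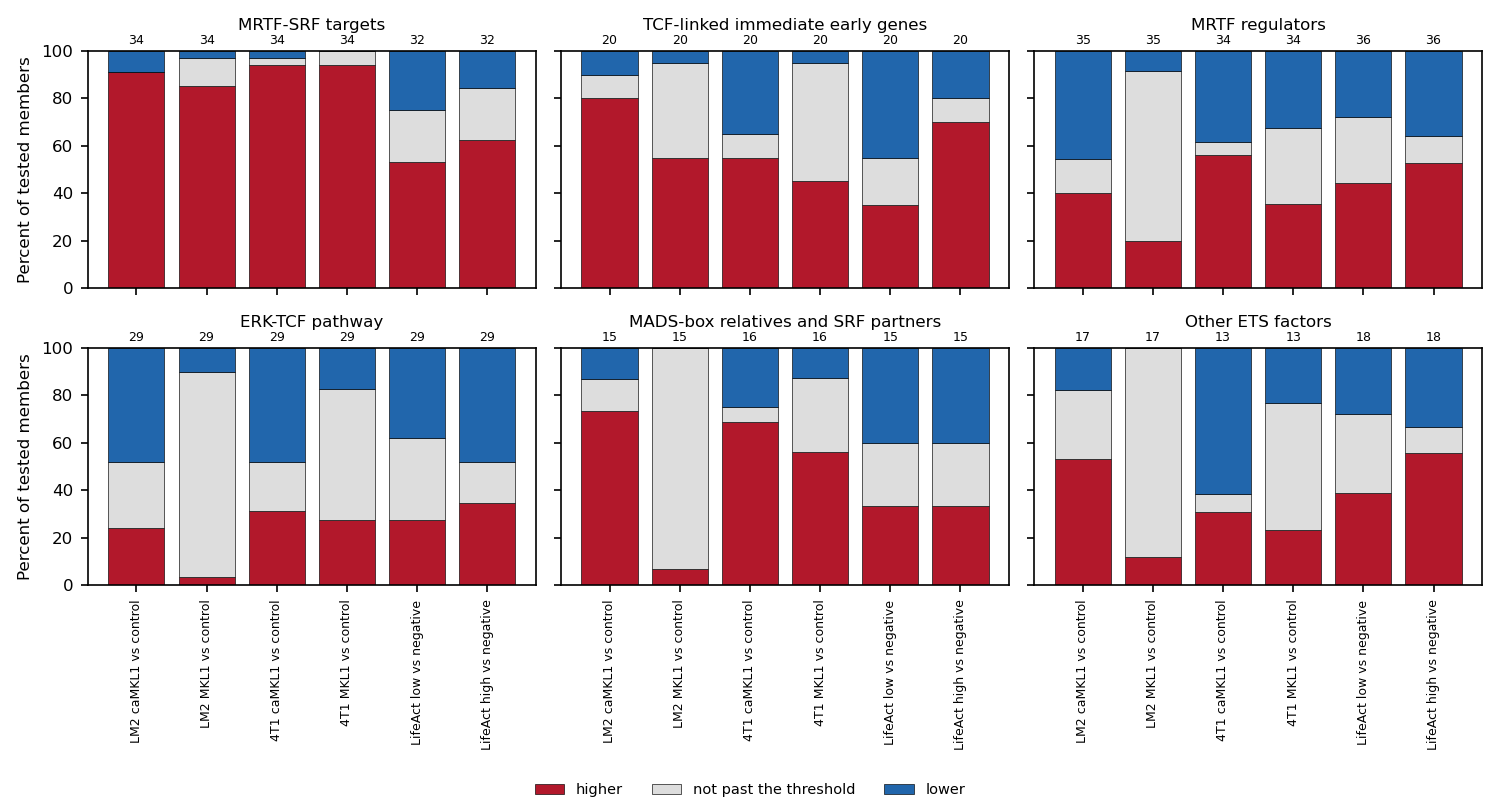
Percent of the tested genes of 6 lists that were higher, lower or not past an adjusted p of 0.05 in each of the 6 comparisons with a control or negative group; the number above a bar is the number of genes tested. MRTF-SRF targets are mostly higher with the constructs (31 of 34 with caMKL1 in LM2), while the ERK-TCF pathway has more lower than higher genes with caMKL1 in both lines.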

How the data were processed

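RNA of 27 libraries was sequenced as 150 bp read pairs, after polyA selection for LM2 and 4T1 and ribosomal RNA depletion for LifeAct, per the labels' protocols. The deposited values are raw read-pair counts per gene, made by the authors with featureCounts 2.0.1 on STAR alignments (version not given in the sources used here) against Ensembl GRCh38 or GRCm38 exons without a strand option, per the file headers. The submitters' processing notes also name DESeq2, hg38 and mm10. Counts were tested with edgeR 4.0.16 (R 4.3.3), per experiment of 9 libraries, with TMM scaling, filterByExpr at a minimum count of 10, a prior count of 0.125, the quasi-likelihood F test and a Benjamini-Hochberg threshold of 0.05 over all genes. The filter left 18893 LM2, 16297 4T1 and 21869 LifeAct genes. SE is the log2 ratio divided by the square root of F. CPM are TMM-scaled and RPKM divide them by the deposited gene length. The difference between lines came from 1 fit over 18 libraries and 16749 symbols that match when case is ignored. Alternatives were DESeq2 1.42.0, limma 3.58.1 (voom), library totals, no filter, a replicate block, fits of only the 2 groups compared, and leaving out libraries. Scripts were tested on simulated data. No replicate pair differed by less than sampling noise (lowest chi-square per gene 1.39). The replicate numbers were not taken to pair samples. Named genes are the members, the 3 genes nearest to SRF and to MRTFB, and some genes of the lists. Those of the lists come from the 4 genes per list with the highest mean RPKM in human cells and from genes set for their role. Only some of these are named, so they do not stand for their lists. The members and lists were chosen with earlier results of these data known. Some genes of the lists are not reported here by name.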

Additional observations from a re-analysis of the deposited data

Results flagged for a closer look

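The response to a construct, as log2 ratio to control, differed between 4T1 and LM2 for 8 values of the members by the test of the difference itself (4T1 minus LM2, edgeR's quasi-likelihood F test). With MKL1 these were MRTFA at 1.85 (adjusted p = 1.3e-07) and MRTFB at 0.62 (adjusted p = 4.3e-04). With caMKL1 they were ELK1 at 1.96 (adjusted p = 6.8e-11), MRTFB at 1.76 (adjusted p = 1.7e-11), ELK4 at 0.52 (adjusted p = 2.1e-05), MRTFA at -0.47 (adjusted p = 0.0176), SRF at -0.35 (adjusted p = 0.0118) and ELK3 at -0.34 (adjusted p = 0.0111). Over all 13113 tested symbols, 19.9% differed with MKL1 and 60.3% with caMKL1. With library totals as scaling, the caMKL1 differences of MRTFA, SRF and ELK3 did not pass (adjusted p = 0.475, 0.974 and 0.973). MRTFA is the introduced gene. Line and species cannot be told apart here, nor can the level of the construct in each line.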

How the results depend on the processing

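Of 66 member values, 49 kept their side of the threshold under every alternative run. With library totals as scaling, which moved the median of all genes to -0.46 for LM2 caMKL1 against control and to -0.21 for 4T1 caMKL1 against control, the log2 ratios of MRTFB (-0.083) and ELK4 (-0.0264) turned in 4T1 caMKL1 against control, the caMKL1 difference of ELK3 turned to 0.0102, and 3 members instead of 6 differed in the caMKL1 response between lines. In the MKL1 response 4 members differed with the replicate block (SRF at 0.30, adjusted p = 0.0421, and ELK1 at 0.33, adjusted p = 0.0403, beside MRTFA and MRTFB) and 5 without both LM2 constructs' replicate 1, against 2. In these refits of the difference between lines, calls over all symbols were not counted, so the members have no share beside them. All genes called for LM2 MKL1 against control were 2265, with 1106 to 2688 when 1 library was left out (1106 to 1266 without a control, 2688 without caMKL1 replicate 1) and 3258 with the replicate block. The block moved no member across the threshold in the 54 values within experiments. Same-numbered correlations were 0.0638 to 0.297 for LM2 caMKL1 and MKL1, where 5 of 6 samples correlated best with their own number, 0.0468 to 0.146 for 4T1 caMKL1 and MKL1 (6 of 6), 0.0414 to 0.216 for 4T1 MKL1 and control (4 of 6), as low as -0.0366 for 4T1 caMKL1 and control (2 of 6), and at most 0.00202 in LifeAct (0 of 6). These are a hint from the data, not the design, and in no pair of groups were all same-numbered correlations above 0.1. The share of calls that were higher went with library totals to 30.9% for LM2 caMKL1 against control (49.1% with TMM), 37.4% for 4T1 caMKL1 against control (50.3%), 42.5% for LM2 MKL1 against control (60.4%), 37.5% for 4T1 MKL1 against control (56.2%), 33.9% (LM2, 50.5% with TMM) and 40.4% (4T1, 50.7%) for caMKL1 against MKL1, and 42% for LifeAct high against low (53%). The causes were not tested.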

Other observations

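Thymosin beta-4, the product of TMSB4X, binds monomeric actin, the form that holds MRTFs. Tmsb4x had a log2 ratio to control of 2.26 with caMKL1 in 4T1 (adjusted p = 3.9e-25), and TMSB4X had one of -0.18 with caMKL1 in LM2 (adjusted p = 0.292) and of -1.14 in LifeAct high against negative cells (adjusted p = 8.9e-21), by edgeR's quasi-likelihood F test.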
